A study of Mus musculus with 20 samples.

Results

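ATAC-seq, in which a transposase cuts and tags open DNA, was used to map accessible chromatin around 10 mouse genes that act when muscle runs short of nutrients: Foxo1, Foxo3, Foxo4, Trim63, Fbxo32, Ulk1, Map1lc3b, Bnip3, Sqstm1 and Tfeb. The peaks of all 20 libraries were merged into 101352 regions wherever they shared at least 1 bp. The 75 regions that lay within 10 kb of the GRCm38 span of one of these genes were kept, and are called elements here. They are numbered along the chromosome within each gene, and they held 771 of 787806 peaks. The cells were C2C12, an established mouse myoblast line that fuses into myotubes when it differentiates. There were 10 groups of 2 libraries, namely WT and Setd2 KO cells at D0, and WT and Setd2 KO cells at D1 and at D5, where both days had a control medium group (CTL) and a methionine restriction group (MR) of each genotype. Setd2 encodes the enzyme that places trimethylation on lysine 36 of histone H3. Each KO group held 1 library of KO line 1 and 1 of KO line 2, so every KO value rests on the same 2 lines. The labels do not say that the WT replicates were separate cultures, so p-values measure only the spread between these libraries. How the lines were made and the methionine content of the media are not given in the sources used here, and ATAC-seq does not check the loss of Setd2.

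Foxo1, Foxo3 and Foxo4 are forkhead transcription factors that insulin and Akt signalling keep out of the nucleus, and that enter it when growth signals or nutrients fall. In muscle they are known for raising the ubiquitin ligases Trim63 (MuRF1) and Fbxo32 (atrogin-1), which mark muscle proteins for degradation, and several autophagy genes. Ulk1 is the kinase that starts autophagosome formation, and Map1lc3b encodes LC3B, which is coupled to the growing membrane. Sqstm1 (p62) and Bnip3 are receptors that bring ubiquitinated cargo and mitochondria to that membrane. Tfeb is a transcription factor of lysosomal and autophagy genes, which it reaches through an E-box called the CLEAR element.

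The start windows of Trim63, Bnip3, Sqstm1 and Ulk1 are printed because their start elements carried the differences between media or genotypes described below. They run from 250 bases before to 50 bases after the RefSeq start on GRCm38.p6, 5′ to 3′ on the strand of the gene. Capitals mark every match to 5 motifs searched on both strands: the FoxO element GTAAACA and its longer form GTAAACAA, which overlaps it, the CLEAR element, its core CACGTG, and the Myod E-box CAGCTG.
Trim63, chr4:134314870-134315169, plus strand: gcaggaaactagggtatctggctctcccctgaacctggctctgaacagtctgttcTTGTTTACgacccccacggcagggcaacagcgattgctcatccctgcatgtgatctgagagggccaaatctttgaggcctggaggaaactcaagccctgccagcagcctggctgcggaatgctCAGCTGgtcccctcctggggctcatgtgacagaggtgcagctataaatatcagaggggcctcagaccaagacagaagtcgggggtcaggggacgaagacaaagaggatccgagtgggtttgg
Bnip3, chr7:138909457-138909756, minus strand: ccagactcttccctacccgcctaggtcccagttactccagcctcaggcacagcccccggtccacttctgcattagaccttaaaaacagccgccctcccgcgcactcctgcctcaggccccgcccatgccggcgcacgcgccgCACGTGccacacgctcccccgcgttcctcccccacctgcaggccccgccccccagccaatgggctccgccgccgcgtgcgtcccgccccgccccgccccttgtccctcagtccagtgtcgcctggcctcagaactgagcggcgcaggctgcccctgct
Sqstm1, chr11:50210771-50211070, minus strand: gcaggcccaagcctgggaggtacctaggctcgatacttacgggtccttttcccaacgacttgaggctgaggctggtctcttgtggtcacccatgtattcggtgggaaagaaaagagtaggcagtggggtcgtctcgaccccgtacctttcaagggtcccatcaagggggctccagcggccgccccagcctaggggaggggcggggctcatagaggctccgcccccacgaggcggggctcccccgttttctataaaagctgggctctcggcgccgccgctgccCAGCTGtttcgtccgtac
Ulk1, chr5:110810032-110810331, minus strand: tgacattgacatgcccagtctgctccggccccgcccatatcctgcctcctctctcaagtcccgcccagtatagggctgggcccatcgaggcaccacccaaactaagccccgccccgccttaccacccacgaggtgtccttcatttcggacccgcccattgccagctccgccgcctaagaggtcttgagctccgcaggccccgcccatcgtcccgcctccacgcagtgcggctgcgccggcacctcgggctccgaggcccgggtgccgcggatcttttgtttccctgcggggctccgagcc

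The Trim63 window held the longer FoxO element, read on the opposite strand as TTGTTTAC from 195 bases before the start. That motif was in 1.23% of the 32851 RefSeq windows of this length, and its shorter form in 3.65%. The Trim63 window also held CAGCTG from 72 bases before the start, a motif found in 16.3% of all windows. Element 2 of Trim63 covered the E-box but not the FoxO element. The Bnip3 window held CACGTG (7.15% of all windows) from 108 bases before the start, inside Bnip3 element 2. CAGCTG lay 32 bases after the start of Sqstm1, inside Sqstm1 element 6, and the Ulk1 window held none of the 5 motifs. Among the 10 windows of the 8 genes with an entry (Tfeb has 3), CAGCTG was also in that of Map1lc3b, and the full CLEAR element was in 0 of 10, against 0.326% of all windows. The median GC content of the 10 windows was 65.7%, against 52.7% over all windows. Fbxo32 and Foxo4 are named only; for them, distances were taken from the nearer end of the gene span.

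The peak lists of 18 libraries held 20847 to 69881 peaks, and those of KO line 1 at D5 held 644 (CTL) and 1881 (MR). The number of peaks is the only measure of depth used here. The 18 deeper libraries called 25 to 59 of the 75 elements each, and the 2 short lists called 0 and 3. Of the 18 libraries, these numbers held a peak no farther than 1 kb from either end of a muscle gene: Des and Cdh15 in 18, Myod1 in 17, Mymk in 14, Acta1 in 9, Myog in 8, Ckm in 5 and Myf5 in 0. Between genotypes, Mymk had one in 10 of 10 WT and 4 of 8 deeper KO libraries, Acta1 in 8 and 1, Myog in 8 and 0, and Ckm in 5 and 0. None of the 4 endothelial markers had one, while Spi1 (18), Cd68 (13), Krt8 (10), Tubb3 (17), Snap25 (3) and Sox10 (1) of the blood, epithelial and neural lists did. In these bulk libraries, fewer cells with an open element and less opening in each cell cannot be told apart.

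Counting elements called in any library, they were densest at Sqstm1 and sparsest at Foxo1. Foxo3 had 13, Fbxo32 12, Sqstm1 11, Tfeb 10, Ulk1 9, Map1lc3b 7 and Foxo1 4, and Foxo4, Trim63 and Bnip3 had 3 each. Per 10 kb of gene and flanks this came to 3.59 at Sqstm1 and 0.393 at Foxo1. This order counts rare calls too. Elements called in 5 or more libraries were 5 of 11 at Sqstm1, 6 of 7 at Map1lc3b, 4 of 4 at Foxo1 and 1 of 3 at Trim63. Of the 75 elements, 16 lay within 1 kb of a start or span end, 33 in the gene body and 26 in the flanks. An element had a median length of 256 bp and was called in a median of 11 libraries, against 172 bp and 5 libraries over all regions. The farthest element kept lay 9730 bp from its gene (Bnip3 element 3) and the nearest region left out 10282 bp away (Foxo1). Another protein-coding gene overlapped 7 elements: Pus1 at Ulk1 elements 1 and 2, Zcchc14 at Map1lc3b elements 6 and 7, and Mrnip at Sqstm1 elements 1 to 3.

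**Figure D1:**
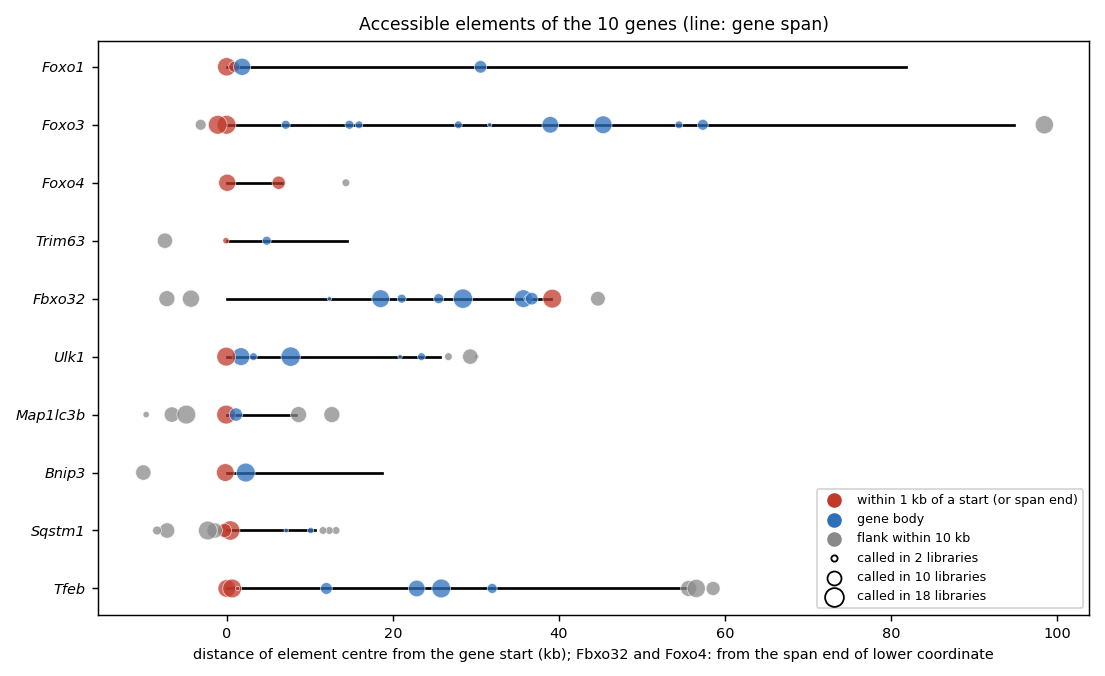
Each point is an element of one of the 10 genes (y axis), placed by the distance of its centre from the first gene start in kb (x axis). For Fbxo32 and Foxo4 the distance runs from the span end of lower coordinate. The line is the gene span, and point area is in proportion to the libraries that called the element. Sqstm1 carries 11 elements in a short span and Foxo1 carries 4, the first 3 of them within 2 kb of its start.

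Peak strength was read in 2 ways. The within-list rank is the percentage of peaks in a library's list whose −log10 p-value was no higher than that of the element, so 100 is the strongest peak. Lists of different length give within-list ranks that show no change, so these only describe. The shared rank is the percentage computed among 11144 regions called in all 18 deeper libraries, and can be compared between libraries. The shared set held 10.995% of all regions and 13 of the 75 elements (17.3%): Foxo3 elements 11 and 12, Fbxo32 7 and 11, Ulk1 6 and 9, Map1lc3b 3 and 4, Bnip3 1, Sqstm1 6 and 9, and Tfeb 2 and 6.

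**Figure D2:**
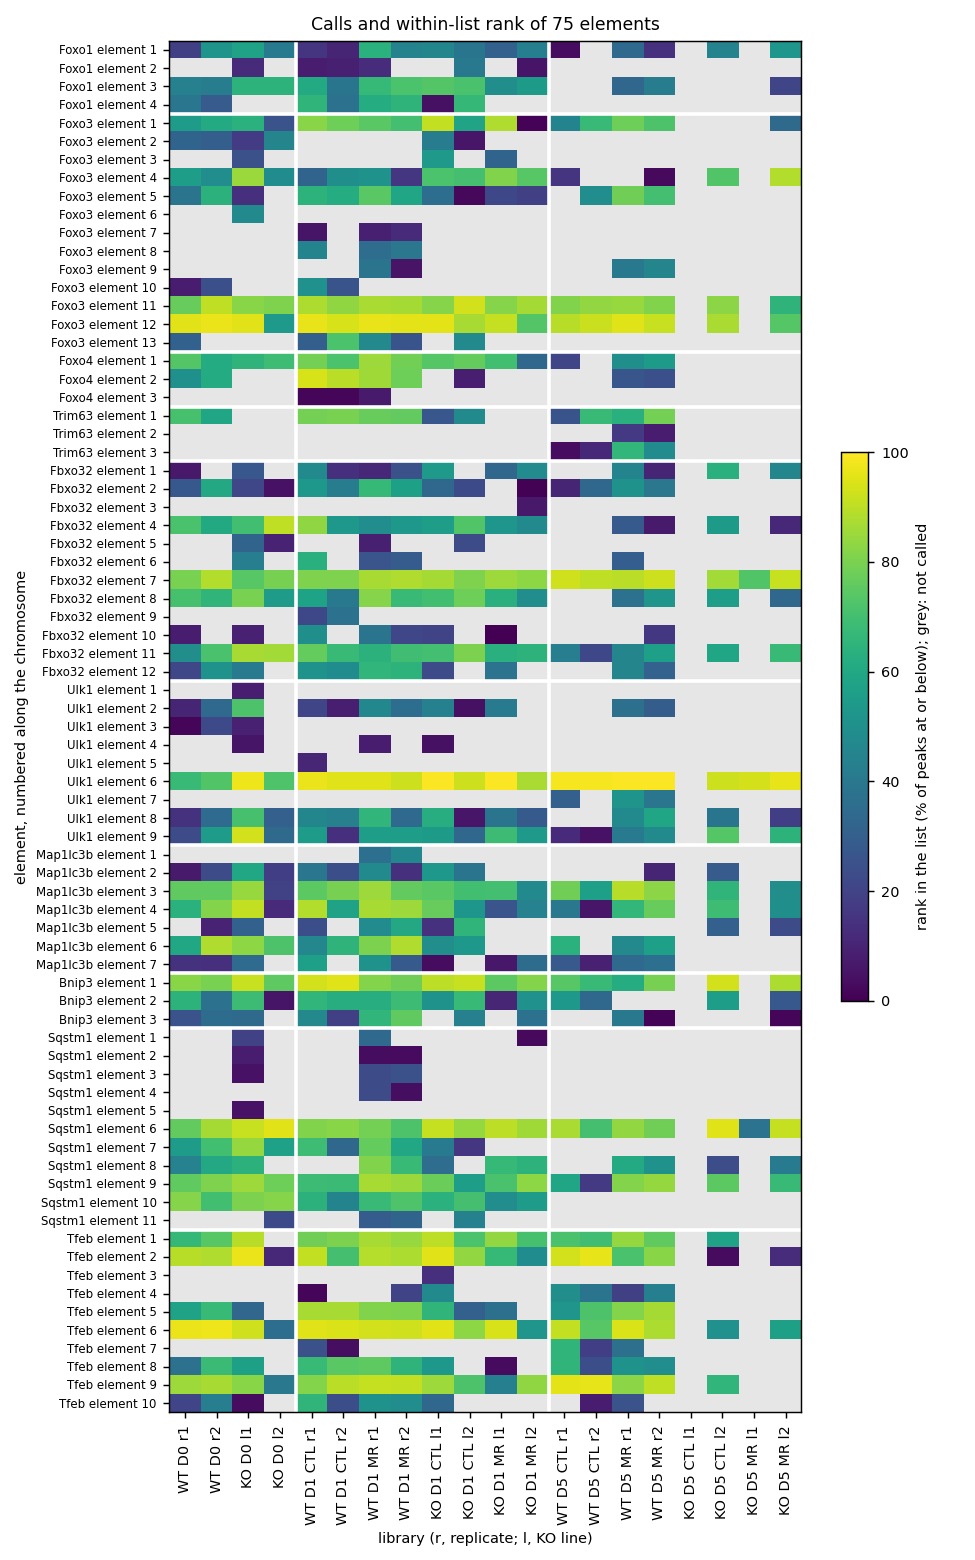
Each row is one of the 75 elements and each column one of the 20 libraries; colour gives the within-list rank in percent and grey means that no peak was called. The columns of KO line 1 at D5 are almost empty, and Trim63 elements 2 and 3 have calls only in WT libraries of D5.

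The FoxO genes differed in how open their starts were. Foxo1 element 1, at the start (chr3:52268025-52268624), was called in 17 libraries and was not in the shared set. Its within-list rank in WT libraries was 18.8 and 51.7 at D0, 15.1 and 10.5 at D1 CTL, 63.9 and 44.6 at D1 MR, 3.45 and no call at D5 CTL, and 34.2 and 14.4 at D5 MR. In KO lines 1 and 2 it was 57.5 and 41.3 at D0, 45.8 and 39.0 at D1 CTL, 31.2 and 43.2 at D1 MR, and in line 2 alone 44.7 and 52.7 at D5 CTL and D5 MR. The Foxo1 start had a call in each of the 12 libraries of D0 and D1, and its highest within-list rank was 63.9, in a WT D1 MR library.

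Foxo3 had a stronger pair of elements at its start. Element 11 (chr10:42276404-42277046) covered the start, and element 12 (chr10:42277347-42278224) lay 0.7 kb upstream. Their within-list ranks were 65.0 to 93.1 and 53.8 to 97.2, against 3.45 to 63.9 for Foxo1 element 1. The shared rank of element 12 in WT libraries was 84.0 and 88.3 at D0, 85.6 and 79.1 at D1 CTL, 81.7 and 80.4 at D1 MR, 80.3 and 85.8 at D5 CTL, and 83.6 and 73.5 at D5 MR. In KO lines 1 and 2 it was 77.8 and 25.2 at D0, 79.7 and 57.9 at D1 CTL, 66.1 and 37.6 at D1 MR, and in line 2 alone 68.8 and 55.6 at D5 CTL and MR. The lowest WT value thus lay above all values of KO line 2, while line 1 overlapped the WT range. Element 11 had WT shared ranks of 38.8 and 64.3, 55.3 and 51.2, 43.6 and 47.3, 67.3 and 73.0, and 54.3 and 46.2 in the same order of groups. In KO lines 1 and 2 it had 32.2 and 57.9 at D0, 30.8 and 75.3 at D1 CTL, and 41.6 and 62.3 at D1 MR, and in line 2 59.1 and 44.3 at D5. Its genotypes overlapped.

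Foxo4, an X-linked member of the family, had an element at each end of its span. Element 1 (chrX:101254009-101254624) was called in 15 libraries, in all of D0 and D1 and in 3 of D5. Its within-list rank was 73.4 and 61.5 in WT D0, 79.2 and 71.8 in WT D1 CTL, 85.4 and 78.6 in WT D1 MR, 20.8 and no call in WT D5 CTL, and 49.6 and 54.5 in WT D5 MR. In KO lines 1 and 2 it was 65.2 and 69.1 at D0, 73.5 and 76.2 at D1 CTL, and 69.6 and 33.9 at D1 MR, with no call at D5. Element 2 (chrX:101260441-101260593) was called in 8 of 10 WT libraries and in 1 of 10 KO libraries.

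Trim63 was the gene whose start was called in the fewest libraries. Element 2 (chr4:134314975-134315067) lay 53 bp upstream of the start and was called in the 2 WT D5 MR libraries, with within-list ranks of 17.01 and 8.01 and fold enrichments over background of 3.08 and 2.73 as the authors give them. No other library called it. Element 3, 4.7 kb into the gene (chr4:134319821-134320052), was called only in the 4 WT libraries of D5, with within-list ranks of 3.49 and 11.5 in CTL and 66.1 and 48.2 in MR. Element 1, 7.4 kb upstream (chr4:134307600-134307745), was called in all 10 WT libraries and in KO at D1 CTL only.

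Fbxo32, the other ligase, was open in every deeper library. Its strongest element by mean shared rank was element 7 in the gene body (chr15:58204068-58204574), with WT values of 44.2 and 57.3 at D0, 37.8 and 45.3 at D1 CTL, 41.9 and 52.2 at D1 MR, 86.8 and 83.7 at D5 CTL, and 66.8 and 74.98 at D5 MR. The KO libraries of lines 1 and 2 had 16.7 and 55.9 at D0, 43.6 and 42.9 at D1 CTL, and 50.1 and 54.6 at D1 MR, and line 2 had 65.8 and 84.1 at D5. Every D5 value lay above every value of D0 and D1. Element 11, at the span end of higher coordinate (chr15:58214570-58215600), had WT shared ranks of 9.07 and 20.5 at D0, 29.2 and 24.6 at D1 CTL, 5.85 and 14.7 at D1 MR, 23.2 and 10.1 at D5 CTL, and 6.46 and 12.3 at D5 MR. In KO lines 1 and 2 it had 44.8 and 68.5 at D0, 12.2 and 41.9 at D1 CTL, and 14.5 and 25.7 at D1 MR, and line 2 had 24.7 and 47.1 at D5. The KO values overlapped those of WT at D1 CTL and at D1 MR, and were higher in both lines at D0.

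Ulk1 held the strongest of the 13 shared elements by mean shared rank, in the gene body and not at the start. Element 6, 7.5 kb into the gene (chr5:110802175-110802594), had WT shared ranks of 24.7 and 22.9 at D0, 87.3 and 83.2 at D1 CTL, 73.5 and 66.3 at D1 MR, 97.6 and 97.5 at D5 CTL, and 98.1 and 98.5 at D5 MR. KO line 1 had 86.9 at D0, 97.0 at D1 CTL and 97.7 at D1 MR, and line 2 had 46.0, 72.8 and 64.5, followed by 80.7 and 92.7 at D5. In WT cells it was thus low in the shared set at D0, high at D1 and near the top at D5, and in KO line 1 it was high at D0 already. The D0 to D1 step has no test, since 2 libraries against 2 cannot give an exact p below 0.333. The start element 9 (chr5:110809951-110810345) was weak in WT, with 1.32 and 6.12 at D0, 7.56 and 0.440 at D1 CTL, 2.72 and 5.08 at D1 MR, 3.73 and 1.47 at D5 CTL, and 4.87 and 6.84 at D5 MR. KO lines 1 and 2 had 66.6 and 11.9 at D0, 2.68 and 1.93 at D1 CTL, and 19.7 and 15.7 at D1 MR, and line 2 had 43.5 and 43.6 at D5.

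Map1lc3b was called at its start in all 18 deeper libraries. Start element 4 (chr8:121590224-121590502) had WT shared ranks of 20.6 and 39.1 at D0, 57.5 and 14.03 at D1 CTL, 41.7 and 44.0 at D1 MR, 21.0 and 2.02 at D5 CTL, and 22.1 and 38.0 at D5 MR. In KO its values were 57.1 and 2.63 in lines 1 and 2 at D0, 20.8 and 8.26 at D1 CTL, and 1.15 and 9.53 at D1 MR, and line 2 had 36.6 and 28.4 at D5. These values spread as widely within groups as between them at D0 and D1 CTL. Element 3, 4.7 kb upstream (chr8:121585358-121585770), had WT shared ranks of 36.1 and 27.3, 26.8 and 43.7, 37.2 and 23.7, 63.3 and 38.3, and 66.4 and 50.04 in the same order. KO lines 1 and 2 had 38.0 and 5.10 at D0, 17.4 and 24.2 at D1 CTL, and 21.7 and 11.6 at D1 MR, and line 2 had 31.7 and 28.0 at D5.

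Of the cargo receptors, Bnip3 had its strongest element just inside the gene. Element 1, 2.1 kb from the start (chr7:138906999-138907433), had WT shared ranks of 49.1 and 35.7 at D0, 72.7 and 83.5 at D1 CTL, 27.8 and 28.0 at D1 MR, 57.2 and 51.1 at D5 CTL, and 17.5 and 43.2 at D5 MR. KO lines 1 and 2 had 60.9 and 49.7 at D0, 54.2 and 70.6 at D1 CTL, and 28.4 and 51.9 at D1 MR, and line 2 had 82.3 and 77.1 at D5. The MR libraries were below the CTL libraries of the same day in WT at D1, WT at D5 and KO at D1. Start element 2 (chr7:138909406-138909952) had within-list ranks of 64.6 and 37.5 in WT D0, 65.8 and 62.2 in WT D1 CTL, 62.5 and 68.6 in WT D1 MR, and 53.3 and 33.8 in WT D5 CTL, and was called in neither WT D5 MR library. In KO lines 1 and 2 it had 68.7 and 5.72 at D0, 51.3 and 67.2 at D1 CTL, and 10.6 and 50.7 at D1 MR, and line 2 had 56.1 and 27.7 at D5.

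Sqstm1 had a start element and a chain of upstream elements. Start element 6 (chr11:50210011-50210791) had WT shared ranks of 36.8 and 51.8 at D0, 39.2 and 49.3 at D1 CTL, 22.6 and 17.9 at D1 MR, 77.0 and 55.0 at D5 CTL, and 52.8 and 40.4 at D5 MR. KO lines 1 and 2 had 60.6 and 87.9 at D0, 59.6 and 50.7 at D1 CTL, and 62.4 and 61.1 at D1 MR, and line 2 had 87.6 and 83.4 at D5. In each condition the KO values lay above both WT values. Element 9, 2.1 kb upstream (chr11:50212874-50213331), had WT shared ranks of 36.001 and 37.4 at D0, 18.7 and 25.2 at D1 CTL, 41.9 and 42.9 at D1 MR, 39.2 and 7.54 at D5 CTL, and 47.1 and 54.0 at D5 MR. Its KO values in lines 1 and 2 were 39.5 and 53.4 at D0, 22.2 and 10.6 at D1 CTL, and 22.9 and 54.5 at D1 MR, and line 2 had 44.9 and 46.9 at D5. Between the start and element 9 lay element 8, 1.2 kb upstream (chr11:50212018-50212533). It was called in both WT D0, both WT D1 MR and both WT D5 MR libraries and in no WT CTL library.

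Tfeb had its strongest element deep in the gene. Element 6, 22.5 kb from the nearest of its 3 starts (chr17:47762491-47763249), had WT shared ranks of 89.6 and 89.3 at D0, 79.0 and 81.0 at D1 CTL, 65.1 and 68.2 at D1 MR, 83.1 and 59.3 at D5 CTL, and 80.7 and 62.6 at D5 MR. KO lines 1 and 2 had 66.1 and 12.8 at D0, 78.1 and 47.8 at D1 CTL, and 76.0 and 14.4 at D1 MR, and line 2 had 17.8 and 35.1 at D5. KO line 2 stood below every WT library, and line 1 did not. At the first start, element 1 was called in all 10 WT libraries and in 6 KO libraries, with within-list ranks of 66.7 and 74.2 in WT D0, 78.2 and 80.4 in WT D1 CTL, 86.9 and 84.5 in WT D1 MR, 71.4 and 69.3 in WT D5 CTL, and 84.4 and 75.5 in WT D5 MR. In KO it had 89.4 in line 1 at D0, 89.98 and 71.8 in lines 1 and 2 at D1 CTL, 83.8 and 70.8 at D1 MR, and 57.6 in line 2 at D5 CTL. Element 2, beside the second start (chr17:47737439-47737923), had WT shared ranks of 66.0 and 55.9 at D0, 64.3 and 28.6 at D1 CTL, 48.7 and 50.3 at D1 MR, 87.4 and 93.4 at D5 CTL, and 28.9 and 48.8 at D5 MR. For element 2, KO lines 1 and 2 had 84.0 and 2.53 at D0, 77.0 and 49.2 at D1 CTL, and 17.9 and 12.2 at D1 MR, and line 2 had 0.224 and 4.08 at D5.

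**Figure D3:**
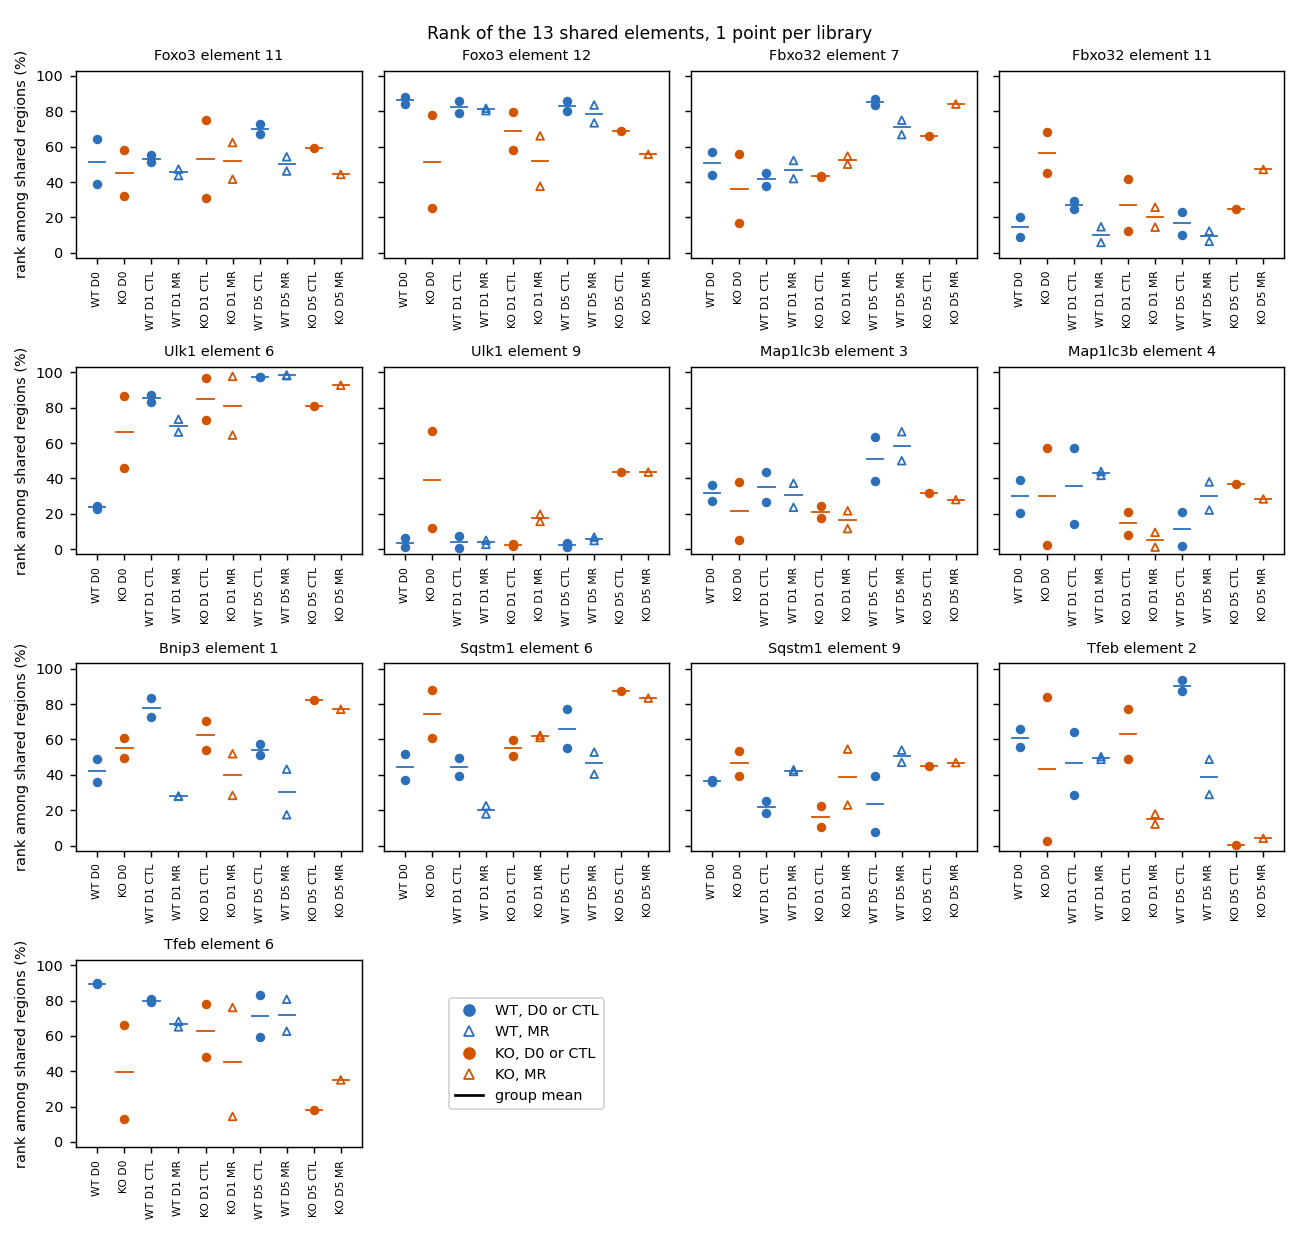
Each panel plots the shared rank in percent (y axis) of one of the 13 shared elements in the 10 groups (x axis), with 1 point per library, triangles for MR and a bar at the group mean; KO D5 groups have 1 library. Bnip3 element 1 sits lower in MR than in CTL in WT at both days, and Sqstm1 element 6 sits higher in KO than in WT in every condition.

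Methionine restriction left no element of the 10 genes past the adjusted threshold of 0.05, and the elements that moved furthest were at Bnip3, Sqstm1 and Tfeb. Bnip3 element 1 was lower under MR in all 3 pairs of groups compared, and Sqstm1 element 9 was higher in all 3. In KO D1 the rise of Sqstm1 element 9 was in line 2, while line 1 hardly moved. On calls, labels were exchanged between media within each genotype and day over 16 libraries, with p-values from all exact arrangements, two-sided, adjusted by Benjamini-Hochberg across those regions that could reach a p of 0.05 or lower. None of the 4 elements that could be tested passed, against 0% of 3909 regions, and at an unadjusted p below 0.05 it was 0 of 4 against 5.88%. On shared rank, 12 libraries of WT D1, WT D5 and KO D1 were compared in the same way. None of 13 elements passed, against 0% of 11144 regions, and 3 of 13 did without adjustment, against 23.1% of regions. Shared ranks of MR and CTL did not overlap for 7 of 13 elements in WT D1 (60.7% of regions), 9 in WT D5 (63.9%) and 6 in KO D1 (29.4%), so a gap between 2 pairs of libraries was common.

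The shared rank of Bnip3 element 1 was 32.8 ± 12.5 (SD, n = 6) under MR and 64.9 ± 12.7 (SD, n = 6) in CTL. The difference, averaged over the 3 pairs of groups, was -32.1 points (exact permutation p = 0.00926, the smallest this design allows, adjusted p = 0.111). With KO labels exchanged only within a line, the exact permutation p was 0.0139 and the adjusted p 0.0935. The groups did not overlap in any of the 3 pairs, with differences of -50.1 in WT D1, -23.8 in WT D5 and -22.3 in KO D1. Bnip3 element 2, at the start, was the 1 element of these genes called in both WT D5 CTL libraries and neither WT D5 MR library, which was so for 0.494% of the 43345 regions called in any of the 4. It separated the media in lists cut to the 20000 strongest peaks too, but 7.08% of regions did so there, and it did not where peaks had to cover 50% of a region. At D1 the start was called in all 4 WT libraries. Bnip3 element 3, 9730 bp from the gene, went the other way. It was called in both WT D5 MR libraries, with within-list ranks of 40.5 and 1.01, and in neither WT D5 CTL library, and at WT D1 it had 65.8 and 75.6 under MR and 46.9 and 18.8 in CTL.

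At Sqstm1 the start and the upstream elements went opposite ways in WT. Element 9 had a shared rank of 43.9 ± 11.6 (SD, n = 6) under MR and 20.6 ± 11.3 (SD, n = 6) in CTL, a difference of 23.3 points (exact permutation p = 0.00926, adjusted p = 0.111) with no overlap in any of the 3 pairs of groups. The gap was narrow in KO D1, where line 1 had 22.2 in CTL and 22.9 under MR, and line 2 had 10.6 and 54.5. Ranked by fold enrichment, element 9 differed by 14.2 points (exact permutation p = 0.139, adjusted p = 0.361), the adjusted p running from 0.0935 to 0.361 over 6 alternatives. With KO labels exchanged only within a line, its exact permutation p was 0.0139. Element 8 was called in 7 of 8 MR libraries and 2 of 8 CTL libraries (exact permutation p = 0.0648, adjusted p = 0.560). Its within-list rank was 81.1 and 67.3 in WT D1 MR, 61.0 and 50.9 in WT D5 MR, and 44.4 and 60.5 in WT D0. In KO it was called in line 1 at D0 (64.2) and D1 CTL (35.8), in both lines at D1 MR (67.0 and 64.8), and in line 2 at D5 CTL (23.5) and D5 MR (41.1). Start element 6 was lower under MR by -24.03 points in WT D1 and -19.4 in WT D5, and higher by 6.6 in KO D1. Averaged over the 3 pairs this was -12.3 points (exact permutation p = 0.0926, adjusted p = 0.277).

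Tfeb element 2 had a shared rank of 34.5 ± 17.1 (SD, n = 6) under MR and 66.6 ± 24.5 (SD, n = 6) in CTL, a difference of -32.2 points (exact permutation p = 0.0370, adjusted p = 0.178). It was lower in WT D5 (-51.6) and in KO D1 (-48.1) without overlap, and 3.1 points higher in WT D1. With KO labels exchanged only within a line, its exact permutation p was 0.0556 and its adjusted p 0.175. Over the 13 elements the median difference was -7.59 points with 4 of 13 positive, against 0.15 points and 50.6% positive over the shared set.

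Calls that separated the 2 media completely were counted with no test. In WT D1, 7 of the 64 elements called in any of those 4 libraries had a call in both MR and neither CTL library, against 10.2% of regions: Foxo3 element 9, Map1lc3b element 1 and Sqstm1 elements 2, 3, 4, 8 and 11. The reverse held for 3 of 64, Foxo3 element 10, Fbxo32 element 9 and Tfeb element 7, against 1.75% of regions. In WT D5 it was 12 of 47 with MR only, against 27.9%: Foxo1 element 3, Foxo3 element 9, Foxo4 element 2, Trim63 element 2, Fbxo32 elements 1, 4, 8 and 12, Ulk1 elements 2 and 8, Bnip3 element 3 and Sqstm1 element 8. Foxo3 element 9, in the gene body, and Sqstm1 element 8 were on both lists. In KO D1 it was 0 of 55 with MR only, against 0.369%, and 7 of 55 with CTL only, against 4%. In KO D5, 0 of 28 separated in either direction, against 0.0446% with MR only and 0.0382% with CTL only. The KO D5 counts say little, since the lists of line 1 there called 0 elements in CTL and 3 in MR.

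List length moved with these counts. The WT lists were longer under MR, with 69881 and 57676 peaks against 60173 and 45545 at D1, and 39538 and 39263 against 22465 and 20847 at D5. The KO D1 lists were shorter under MR, with 48460 and 35201 peaks against 61045 and 46664. In lists limited to their 20000 strongest peaks, Sqstm1 element 8 was the 1 element of the 7 at D1, and the 1 of the 12 at D5, that still separated the media. Of the rest, 6 at D1 and 9 at D5 had no call in any of the 4 limited lists, Trim63 element 2 among them, and 2 at D5 were called without separating. None of the 7 elements with CTL only in KO D1 still separated the media in limited lists. Of these, 5 had no call there and 2 were called without separating. Counted anew in the limited lists, 2 elements had calls with MR only at WT D1 and 0 with CTL only, against 7.76% and 6.77% of regions. At WT D5 it was 1 with MR only and 5 with CTL only, against 8.22% and 7.08%.

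Between genotypes, elements upstream of Trim63, at the end of Foxo4 and beyond the end of Tfeb were called less often in KO, and the starts of Sqstm1 and Ulk1 had a higher shared rank. All p-values between genotypes exchange the libraries of a condition freely, although libraries of one KO line deviated together (correlation 0.357 to 0.542), so they are too small for a comparison of lines. Counting each line and each WT replicate number once, 2 against 2, could not give an exact p below 0.333. Peaks at muscle genes moved with genotype too, with Myog in 8 of 10 WT and 0 of 8 deeper KO libraries, and their part in these results was not tested. On calls over all 20 libraries, within each day and medium, 3 of 15 elements passed, all called less often in KO, against 18.8% of 18700 regions in either direction and 16.1% called less often, so the share was near the background. At an unadjusted p below 0.05 it was 9 of 15, against 50.8% of regions. Trim63 element 1 was called in 2 of 10 KO and 10 of 10 WT libraries (exact permutation p = 0.00154, adjusted p = 0.0352). Its within-list rank in WT was 70.8 and 59.3 at D0, 79.0 and 79.8 at D1 CTL, 76.8 and 76.0 at D1 MR, 25.8 and 67.3 at D5 CTL, and 63.4 and 79.0 at D5 MR. In KO it was 27.0 and 47.9 at D1 CTL, in lines 1 and 2. Both lines lacked it at D0, where the 2 WT libraries had it.

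Foxo4 element 2 was called in 1 of 10 KO and 8 of 10 WT libraries (exact permutation p = 0.00463, adjusted p = 0.0412). Its WT within-list rank was 50.2 and 61.6 at D0, 93.8 and 89.6 at D1 CTL, 85.9 and 78.1 at D1 MR, and 26.9 and 24.4 at D5 MR, with no call at D5 CTL, and KO line 2 at D1 CTL had 8.54. Tfeb element 8, 165 bp beyond the span (chr17:47792581-47792767), was called in 3 of 10 KO libraries, all of line 1, and in 10 of 10 WT libraries (exact permutation p = 0.00694, adjusted p = 0.0487). Its WT within-list rank was 37.5 and 68.3 at D0, 67.6 and 74.4 at D1 CTL, 75.1 and 65.2 at D1 MR, 65.3 and 24.01 at D5 CTL, and 51.0 and 48.9 at D5 MR, and line 1 had 56.8, 53.2 and 2.97 at D0, D1 CTL and D1 MR. The short lists of KO line 1 at D5 enter these counts. With all KO D5 libraries left out, 0 of 3 testable elements passed, against 18.8% of 7182 regions, and 1 did without adjustment. With line 1 left out it was 4 of 11, against 24.7% of regions. With line 2, WT replicate 1 or WT replicate 2 left out it was 0, as it was for all regions of the genome. Over 8 alternatives, Trim63 element 1 passed in 3 (exact permutation, adjusted p 0.0251 to 0.147) and Tfeb element 8 in 1 (0.0499 to 0.177). Foxo4 element 2 passed in 0 of the 8 (0.0537 to 0.147).

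On shared rank, 5 of 13 elements passed between the genotypes, 3 higher and 2 lower in KO, against 22.1% of 11144 regions. Without adjustment 7 of 13 had a p below 0.05, against 36.4%. Groups of 2 against 2 were often apart by themselves: KO and WT shared ranks did not overlap for 8 of 13 elements at D0 (39.2% of regions), 4 at D1 CTL (42%) and 7 at D1 MR (50.5%). Sqstm1 element 6, at the start, rose from 44.3 ± 17.02 (SD, n = 10) in WT to 69.2 ± 14.7 (SD, n = 8) in KO. The difference averaged over the 5 conditions was 28.2 points (exact permutation p = 0.000514, the smallest this design allows; adjusted p = 0.00833). It was 24.6 points in line 1, averaged over the 3 conditions of D0 and D1, and 29.9 in line 2, averaged over all 5. The genotypes did not overlap in any of the 5 conditions, but D5 had 1 KO library in each medium. Ulk1 element 9, at the start, rose from 4.01 ± 2.47 (SD, n = 10) to 25.7 ± 23.1 (SD, n = 8), a difference of 25.3 points (exact permutation p = 0.00206, adjusted p = 0.0172). Over the same conditions line 1 gave 25.8 and line 2 gave 19.3 points, and D1 CTL was the exception, with -1.7. The highest KO values were 66.6 in line 1 at D0 and 43.5 and 43.6 in line 2 at D5. The other KO values were 1.93 to 19.7. Fbxo32 element 11 rose from 15.6 ± 8.23 (SD, n = 10) to 34.9 ± 19.1 (SD, n = 8), by 19.5 points (exact permutation p = 0.0108, adjusted p = 0.0488), of which line 1 showed 6.51 and line 2 26.0.

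The 2 elements that fell did so mostly in line 2. Foxo3 element 12 fell from 82.2 ± 4.22 (SD, n = 10) to 58.6 ± 19.1 (SD, n = 8), a difference of -22.9 points (exact permutation p = 0.00103, adjusted p = 0.0116), with -8.63 in line 1 and -33.2 in line 2. Tfeb element 6 fell from 75.8 ± 11.1 (SD, n = 10) to 43.5 ± 27.5 (SD, n = 8), a difference of -35.7 points (exact permutation p = 0.00360, adjusted p = 0.0241), with -5.29 in line 1 and -50.2 in line 2. Tfeb element 2 had 7.29 in line 1 and -43.6 in line 2, and did not pass with both (-32.1 points, exact permutation p = 0.0401, adjusted p = 0.117). Map1lc3b element 3 was lower in all 5 conditions, by -17.5 points (exact permutation p = 0.0129, adjusted p = 0.0550). Line 1 values average the 3 conditions of D0 and D1 and line 2 values all 5, and the difference between the lines was not tested. Line 2 had the shorter lists at D0 (30629 against 63530 peaks), D1 CTL (46664 against 61045) and D1 MR (35201 against 48460). The part of list length in the difference between the lines was not tested.

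**Figure D4:**
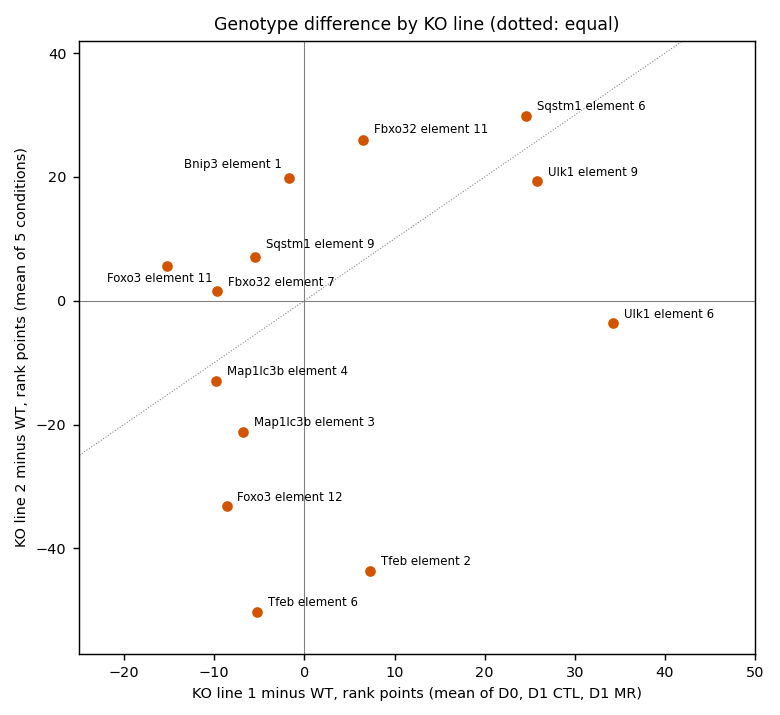
For the 13 shared elements, the mean difference in shared rank from WT, in points, of KO line 2 (y axis) is plotted against that of KO line 1 (x axis). The dotted line marks equal differences. The mean is over D0, D1 CTL and D1 MR for line 1 and over all 5 conditions for line 2. Sqstm1 element 6 and Ulk1 element 9 lie high on both axes, and Tfeb elements 2 and 6 lie at -43.6 and -50.2 on the axis of line 2 and near 0 on that of line 1.

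Whole chromosomes moved with genotype as well. Averaged over the 5 conditions, the median shared rank of all shared regions of a chromosome differed between KO and WT by -9.004 points on chromosome 10, which holds Foxo3, by -8.32 on chromosome 17 (Tfeb), by 6.26 on chromosome 15 (Fbxo32), by 3.11 on chromosome 11 (Sqstm1) and by 1.25 on chromosome 5 (Ulk1). The lines were read by another measure, the median difference of single shared regions from WT. Lines 1 and 2 had -3.91 and -5.83 points on chromosome 10, and 0.231 and -5.96 on chromosome 17. They had 1.98 and 5.21 on chromosome 15, 0.879 and 2.50 on chromosome 11, and 1.09 and 1.61 on chromosome 5. The shift of chromosome 17 was thus seen in line 2 and not in line 1. Relative to its chromosome the difference was -13.9 for Foxo3 element 12 (exact permutation, adjusted p = 0.0430), -27.4 for Tfeb element 6 (0.0414), 25.1 for Sqstm1 element 6 (0.0177), 24.002 for Ulk1 element 9 (0.0201) and 13.3 for Fbxo32 element 11 (0.166). Fbxo32 element 11 thus missed the threshold on that scale and Map1lc3b element 3 passed it (-17.9, exact permutation, adjusted p = 0.0479). None of the 13 elements passed with WT replicate 1, WT replicate 2 or KO line 2 left out, nor any region of the genome, and 1 or 2 of 13 did so without adjustment. With all KO D5 libraries left out 0 passed, and 3 did without adjustment. Sqstm1 element 6 ranked by fold enrichment differed by 19.98 points (exact permutation, adjusted p = 0.107).

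By separation, elements were called in both WT and neither KO library in 4 of 60 at D0 (against 5.36% of regions), 4 of 61 at D1 CTL (6.45%) and 18 of 62 at D1 MR (17.7%). The reverse held for 1 of 60 (2.51%), 1 of 61 (5.41%) and 0 of 62 (1.61%). At D1 MR the 18 included Sqstm1 elements 2, 3, 4, 7 and 11, Foxo3 elements 7, 8, 9 and 13, and Trim63 element 1. The KO D1 MR lists were shorter than the WT ones, and 14 of the 18 had no call in the 4 lists of this comparison when these were limited to 20000 peaks. Trim63 element 1, Foxo4 element 2 and Map1lc3b element 6 still separated the genotypes there. Counts at D5 rest on the 2 short lists of line 1 and were 9 of 39 at CTL (10.4%) and 18 of 48 at MR (35.1%) with calls in WT, and 0 of 39 (0.0333%) and 0 of 48 (0.0287%) with calls in KO.

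Between D1 and D5, elements of these genes were called less often, and Fbxo32 element 7 and the Sqstm1 start gained in shared rank. On calls over 16 libraries, within genotype and medium, 8 of 12 elements passed, all called less often at D5, against 66.2% of 16153 regions, so the share was that of the background. Without adjustment it was 9 of 12, against 80.1%. They were Foxo1 elements 3 and 4, Foxo3 elements 5 and 13, Foxo4 element 1, Ulk1 element 2 and Sqstm1 elements 7 and 10. Sqstm1 element 10, 6.9 kb upstream (chr11:50217730-50218286), had a call in every one of the 12 D0 and D1 libraries and in 0 of 8 at D5 (exact permutation p = 0.00154, adjusted p = 0.0379). Its within-list rank was 82.0 and 69.7 in WT D0, 80.2 and 81.8 in KO D0, 64.4 and 45.0 in WT D1 CTL, 67.8 and 72.3 in WT D1 MR, 63.8 and 70.4 in KO D1 CTL, and 48.9 and 55.4 in KO D1 MR. Complete separations ran the same way: 18 of 56 elements were called in both WT D1 CTL and neither WT D5 CTL library (32.9% of regions), 13 of 64 in the MR pair (21.9%), 13 of 53 in KO CTL (18%) and 6 of 41 in KO MR (19.3%). The reverse was rare, with 1 of 56 in WT CTL (0.409%), 3 of 64 in WT MR (1.69%), 0 of 53 in KO CTL (0%) and 0 of 41 in KO MR (0.00188%). The 2 short lists of KO line 1 at D5 keep these KO counts near 0, and the KO elements called at D1 and not at D5 rest on line 2. Trim63 element 3 was the one in CTL, and Trim63 elements 2 and 3 and Ulk1 element 7 were those in MR. The D5 lists were shorter than the D1 lists of the same genotype and medium. In lists limited to 20000 peaks 1 element could be tested and 0 passed, with 0 at an unadjusted p below 0.05 and 0% of regions called.

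On shared rank, 2 of 13 elements passed between D5 and D1, both higher at D5, against 6.41% of 11144 regions, and 4 of 13 had an unadjusted p below 0.05, against 27.3%. The WT groups of D5 and D1 did not overlap for 7 of 13 in CTL (64.9% of regions) and 6 of 13 in MR (64.6%). Fbxo32 element 7 rose from 46.1 ± 5.72 (SD, n = 8) at D1 to 77.0 ± 9.22 (SD, n = 6) at D5, by 30.5 points averaged over genotype and medium (exact permutation p = 0.00309, the smallest this design allows; adjusted p = 0.0482). The difference was 43.7 in WT CTL, 23.8 in WT MR, 22.5 in KO CTL and 31.7 in KO MR. There was no overlap in any of the 4, but the KO pairs had 1 library at D5. Sqstm1 element 6 rose from 45.3 ± 17.3 (SD, n = 8) to 66.0 ± 19.2 (SD, n = 6), by 25.6 points (exact permutation p = 0.00309, adjusted p = 0.0482), also without overlap in the 4 pairs. Relative to their chromosomes both had an adjusted p of 0.0505. With WT replicate 1 left out both had 0.276, with WT replicate 2 0.272, with KO line 1 0.0807, and with labels exchanged only within a KO line 0.0714. Ulk1 element 6 was higher at D5 by 12.04 points (exact permutation p = 0.127, adjusted p = 0.312), with values of 64.5 to 97.7 over the 8 D1 libraries. Over the 13 elements the median difference was 8.82 points with 11 of 13 positive, against 0.47 points and 51.7% over the shared set.

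From D0 to D1 in control medium, 4 of 57 elements in WT were called in both D1 and neither D0 library, against 7.44% of regions, and 3 of 57 the other way, against 2.63%. Sqstm1 element 8 was among those 3. Shared ranks of the 2 days did not overlap for 5 of 13 elements in WT (48.3% of regions) and 4 of 13 in KO (26%). In KO it was 2 of 61, against 1.91%, namely Foxo1 element 4 and Trim63 element 1, and 0 of 61, against 0.353%. The authors' fold enrichment of Ulk1 element 6 was 5.03 and 5.56 in WT D0 and 12.9 and 10.3 in WT D1 CTL, and 13.4 and 5.95 in KO lines 1 and 2 at D0.

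The wider pathway was read at the starts of 50 other genes of FoxO, Akt, mTOR, AMPK and autophagy signalling, 47 of which had an element within 1 kb of a start. Between media, 0 of 1 start elements passed on calls, with 0 below an unadjusted p of 0.05, and 0 of 24 on shared rank, with 6 below it, against 23.1% of regions. Between genotypes, 0 of 8 passed on calls, with 2 below an unadjusted p of 0.05, and 2 of 24 on shared rank, both higher in KO. These shares lay below the 18.8% and 22.1% of all regions that passed. The 2 were Pdk4, the kinase that shuts off pyruvate dehydrogenase, with 46.8 points (exact permutation, adjusted p = 0.00833), and the autophagy receptor Calcoco1, with 6.82 points (adjusted p = 0.0195). Between D5 and D1, 5 of 6 were called less often at D5, against 66.2% of regions, and 0 of 24 passed on shared rank, against 6.41%, with 8 below an unadjusted p of 0.05, against 27.3%. The 5 were Akt1, Tsc1, Tsc2, Prkaa2 and Tfe3, which encode a growth-signal kinase, the 2 subunits of the brake on mTOR, an AMPK subunit and a relative of Tfeb. The median differences on shared rank over the 24 were 1.52 points for MR, 0.64 for KO and 6.48 for D5, against 0.15, 0.55 and 0.47 over the shared set.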

How the data were processed

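Per the labels, ATAC-seq libraries of C2C12 cells were made with a commercial tagmentation kit. The authors deposited 1 broad peak list per library, with a score (10 times the −log10 q-value, without decimals, in 99.975% of peaks), a fold enrichment over background, and the deposited −log10 p-value and −log10 q-value of each peak. The build, GRCm38, is given per the submitters' processing notes; aligner, filters and peak caller are not given in the sources used here. Peaks were merged across libraries, a region counted as called where a library's peak shared at least 1 bp with it, and its value was that of the strongest such peak. Gene spans, matched by symbol for 10 of 10 genes, and start windows came from RefSeq. Exact stratified permutation tests (two-sided) ran over all regions in Python 3.11.15 (numpy 2.4.6, pandas 2.3.3) with Benjamini-Hochberg adjustment, and were tested on simulated data. Alternatives were stricter peaks, equal-length lists, 50% cover, fold enrichment, chromosome medians, omitted libraries and replicate blocks.

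The genes and lists were chosen with earlier results of these data known. Values in every library are given for each gene's start element and its strongest shared element; also named are elements that passed an adjusted test or separated the media in WT. Same-numbered WT replicates did not deviate together (correlation -0.051 to 0.120 over 10 pairs of groups), and libraries of one KO line did (0.357 to 0.542 over 3 pairs), so the KO lines pair and the WT numbers do not.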

Additional observations from a re-analysis of the deposited data

Results flagged for a closer look

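Among groups of 2 libraries each, 5 element and comparison combinations had a shared rank that moved one way in every library of one pair of groups and the opposite way in every library of another. None of these differences was itself tested, and the share of all shared regions that moved in this way was not counted. In a single pair of such groups 26% to 64.9% of shared regions did not overlap, so a gap was common. Under MR, Sqstm1 element 6 was lower in WT D1 (-24 points) and WT D5 (-19.4) and higher in KO D1 (6.6), a gap of -30.6 points between WT D1 and KO D1 and of -26 between WT D5 and KO D1. Fbxo32 element 7 was lower under MR in WT D5 (-14.4) and higher in KO D1 (9.1), a gap of -23.5. Ulk1 element 6 was lower under MR in WT D1 (-15.4) and higher in WT D5 (0.8), a gap of -16.1. Between genotypes, Bnip3 element 1 was higher in KO at D0 (12.9) and D1 MR (12.2) and lower at D1 CTL (-15.7), gaps of 28.6 between D0 and D1 CTL and of -27.9 between D1 CTL and D1 MR. From D0 to D1 CTL, Fbxo32 element 11 was higher in WT (12.1) and lower in KO (-29.6), a gap of 41.8. Groups with KO line 2 alone at D5 were not counted and held further such cases: from D1 to D5, Tfeb element 2 was higher in WT CTL (43.9) and lower in KO CTL (-62.9), and Bnip3 element 1 was lower in WT CTL (-23.95) and higher in KO MR (36.9).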

How the results depend on the processing

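Between media, 0 elements passed on calls or shared rank under any alternative run, with 0 or 1 below an unadjusted p of 0.05 on calls and 1 to 4 on rank. Between genotypes, 3 elements passed on calls. That became 2 with stricter peaks (1 shared with the 3), against 4.86% of regions. In the 20000-peak lists it was 3 (1 shared, and 1 of the 3 higher in KO), against 28%. It was 0 with peaks covering at least 50% of the region (9 of 18 unadjusted), against 0%, and 0 without KO D5 (1 of 3), against 18.8%. With 1 replicate or line left out it was 0 to 4 (3 to 8 unadjusted), against 0% to 24.7%. The 5 passing on rank became 3 of 13 ranked by fold enrichment (18.1% of regions), 2 of 6 with peaks whose −log10 q-value reached 5 (17.5%) and 3 of 7 in the 20000-peak lists (21.1%). It was 0 without KO D5 (3 unadjusted, added after seeing the data), against 0%. With 1 left out it was 0 to 7 (1 to 8 unadjusted), against 0% to 29%. Between days, 8 passing on calls became 0 in the 20000-peak lists (0 of 1), against 0% of regions, and 5 with 50% cover, against 57.7%. It was 3 with a replicate block on all numbers, against 87.5%, and 7 with a block on the KO lines, which do pair (6 of them shared), against 85.1%. With 1 left out it was 0 to 5 (2 to 5 unadjusted), against 0% to 91.1%. The 2 passing on rank became 0 relative to the chromosome (4 unadjusted), 0 under either replicate block (3 and 3 unadjusted) and 0 with 1 left out (2 to 4 unadjusted), each against 0% of regions. The block changed no other count.

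Of the separations between media, the 7 with MR only at WT D1 became 2 in the 20000-peak lists (7.76% of regions), and the 3 with CTL only became 0 there (6.77%) and 1 with 50% cover (1.92%). The 12 with MR only at WT D5 became 1 in those lists (8.22%), and the 1 with CTL only became 5 there (7.08%) and 0 with 50% cover (0.486%). The count of 75 elements was 56 within 2000 bp, 104 within 25000 bp and 59 with the stricter peaks. Of single elements, Tfeb element 2 reversed between genotypes with 1 left out (-43.6 without KO line 1, 7.29 without KO line 2) and Foxo3 element 5 between days in the 20000-peak lists (0.125 of libraries); the causes were not tested. Settings that could not reach 0.05 were not run as tests: on calls between days without KO D5, and on rank between media without either WT replicate and between days without KO D5 or without KO line 2. Groups of 2 libraries, 2 KO lines and the 2 short lists of KO line 1 at D5 limit all results, and where fewer libraries were used 0 regions of the genome passed in several settings.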
